A study of Mus musculus with 35 samples.

Results

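RNA of whole mouse testis was compared between PTU-exposed Akt1 homozygous mutant mice and PTU-exposed Akt1 heterozygous mice at postnatal day 25. PTU (propylthiouracil) is a drug that blocks the synthesis of thyroid hormone. The members are all arrays whose labels give that age, that exposure and either genotype. They are 2 homozygous and 3 heterozygous arrays, 5 of the 17 arrays of day 25 and of the 35 arrays of the series. The 17 arrays cross the wild type, heterozygous and homozygous Akt1 genotypes with PTU exposure or none, with 3 arrays per group except for the 2 exposed homozygous ones. All mice were male and of the strain C57BL6, and the design counts 1 chip for each mouse. Another exposed homozygous chip was judged by the submitters to be of low quality and is not analysed here. The dose and timing of PTU and the part of Akt1 that was removed are not given in the sources used here. Total RNA was isolated with TriReagent, amplified as biotin-labelled cRNA and hybridised to Affymetrix Mouse Genome 430 2.0 arrays. The values are log2 intensities after RMA, a method that corrects background, equalises the arrays and summarises the probes of each probe set.

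Akt1 encodes a serine/threonine kinase downstream of PI3K that promotes cell survival and growth and keeps FoxO transcription factors out of the nucleus. In the testis, thyroid hormone limits how long Sertoli cells divide and promotes their maturation, and it is needed for adult Leydig cells to arise. The first wave of spermatogenesis proceeds from spermatogonia through meiotic spermatocytes to round and then elongating spermatids, and at the age studied here spermatids are accumulating. Since a whole organ was measured, fewer cells of a type and less RNA per cell cannot be told apart. Because the arrays were equalised, every value is relative to the rest of its array. A gene said to rise or fall below did so in this relative sense. A larger share of the RNA and a larger amount of a transcript cannot be told apart.

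Both exposed homozygous arrays stood apart from the other 15 arrays, and from each other. Over all 45101 probe sets they correlated with each other at 0.982. Against the exposed heterozygous arrays, homozygous array 1 reached 0.968 to 0.979 and homozygous array 2 reached 0.929 to 0.942. The heterozygous arrays correlated among themselves at 0.995 to 0.996, and the lowest value between any of the other 15 arrays was 0.977. The 18S ribosomal RNA control probe set read 10.8 in homozygous array 2, 7.25 in array 1 and 6.12 to 7.44 elsewhere. The spiked poly-A controls averaged 9.89 in homozygous array 2, 8.49 in array 1 and 6.13 to 8.69 in the other 15. For beta-actin, the 3' probe set exceeded the 5' one, a gap that widens in degraded RNA, by 1.44 in homozygous array 2, by 1.08 in array 1 and by 0.55 to 1.31 elsewhere. Transcripts that adult mice make chiefly in the epididymis were also present in both homozygous arrays, and at lower levels in heterozygous array 2 and in exposed wild type array 3. The part of these quality values in the results was not tested. List counts are therefore given with all arrays and with the mean of the epididymal genes as a covariate, called the epididymal covariate below, and where leaving out an array moved them by more than 1.5 times. The epididymal mean is over the 10 tested genes of that list, of which 6 rose and 2 fell. High values in the 2 homozygous arrays alone suffice for a gene to be tested. The mean was 8.87 and 8.75 in homozygous arrays 1 and 2. It was 7.73 in heterozygous array 2, 7.18 in exposed wild type array 3 and 6.28 to 6.55 in the rest. Within groups it thus varied mainly through heterozygous array 2 and wild type array 3, and neither reached the homozygous values. This covariate thus largely overlaps with the exposed homozygous group. A call can then be lost through a wider error as well as a smaller difference. List medians under it shrank for some lists, as for matrix genes (0.75 to 0.26), and not for others, as for ribosomal genes (0.44 to 0.46). A fit without homozygous array 2 leaves 1 array of that genotype, which is then assumed to vary like the other groups. The median gene had an SD of 0.191 in the homozygous and 0.101 in the heterozygous group, and 0.089 to 0.135 in the other groups. The errors rest on 1 spread shared by all 17 arrays. They can therefore be too small for the homozygous group, and p-values with them. Having 2 arrays limits what can be said of the spread.

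The targeted gene is read by 4 probe sets. The brightest read 9.46, 9.52 and 9.45 in heterozygous arrays 1 to 3 and 9.45 and 9.53 in homozygous arrays 1 and 2, so the groups overlapped (difference 0.01 ± 0.10 SE on the log2 scale, limma adjusted p = 0.929 over all probe sets). A second Akt1 probe set read 8.78, 8.91 and 8.60 against 8.56 and 8.01. Here both homozygous arrays lay below the heterozygous ones (-0.48 ± 0.19, limma adjusted p = 0.0371), array 2 farther than array 1. In exposed wild type mice the same probe set read 8.99, 9.33 and 8.93. In unexposed mice it differed between the same genotypes by -0.37 (limma adjusted p = 0.328). Because the position of the deletion is unknown here, the genotype could not be checked with these probe sets. Akt2, the closest relative, read 10.38, 10.52 and 10.44 against 10.32 and 10.14 in its brightest probe set (-0.22 ± 0.09, limma adjusted p = 0.0433 over genes and 0.0544 over all probe sets). Its other 2 probe sets passed in opposite directions over all probe sets, at -0.53 (adjusted p = 0.0315) and 0.35 (adjusted p = 0.00592). The gene-level call was lost without homozygous array 2 (-0.13, adjusted p = 0.329). It was also lost without heterozygous array 2 (-0.18, adjusted p = 0.128) or array 3 (-0.22, adjusted p = 0.0772).

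Of 16305 tested genes, 10561 passed an adjusted p of 0.05 between the exposed genotypes, which is 64.8%. The homozygous arrays were higher for 5436 genes (33.3%) and lower for 5125 (31.4%). Differences of at least 1 log2, a doubling, were found for 1328 higher genes (8.14%) and 1726 lower genes (10.6%). Without homozygous array 2, 7918 genes passed, of which 7722 were shared with the full set. Among the 10561 genes, 9232 (87.4%) lay on the same side and farther from the heterozygous mean in array 2 than in array 1, and for 4 genes the homozygous arrays lay on opposite sides. The count fell to 2362 with the epididymal mean as a covariate, 3280 with the beta-actin difference and 4565 with the poly-A mean. It was 8551 when the 2 exposed groups were fitted alone and 6943 with array weights. The same genotype comparison in unexposed mice, 3 arrays against 3, passed for no gene in limma (0%), with 1807 (11.1%) at an unadjusted p of 0.05. Values under 4.76, the 25th percentile of all values, are near background, and a difference against them is not an exact size. With so many genes passing, a gene list is read below against the shares of 33.3% and 31.4% and against the median difference of all genes, which was -0.03.

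**Figure D1:**
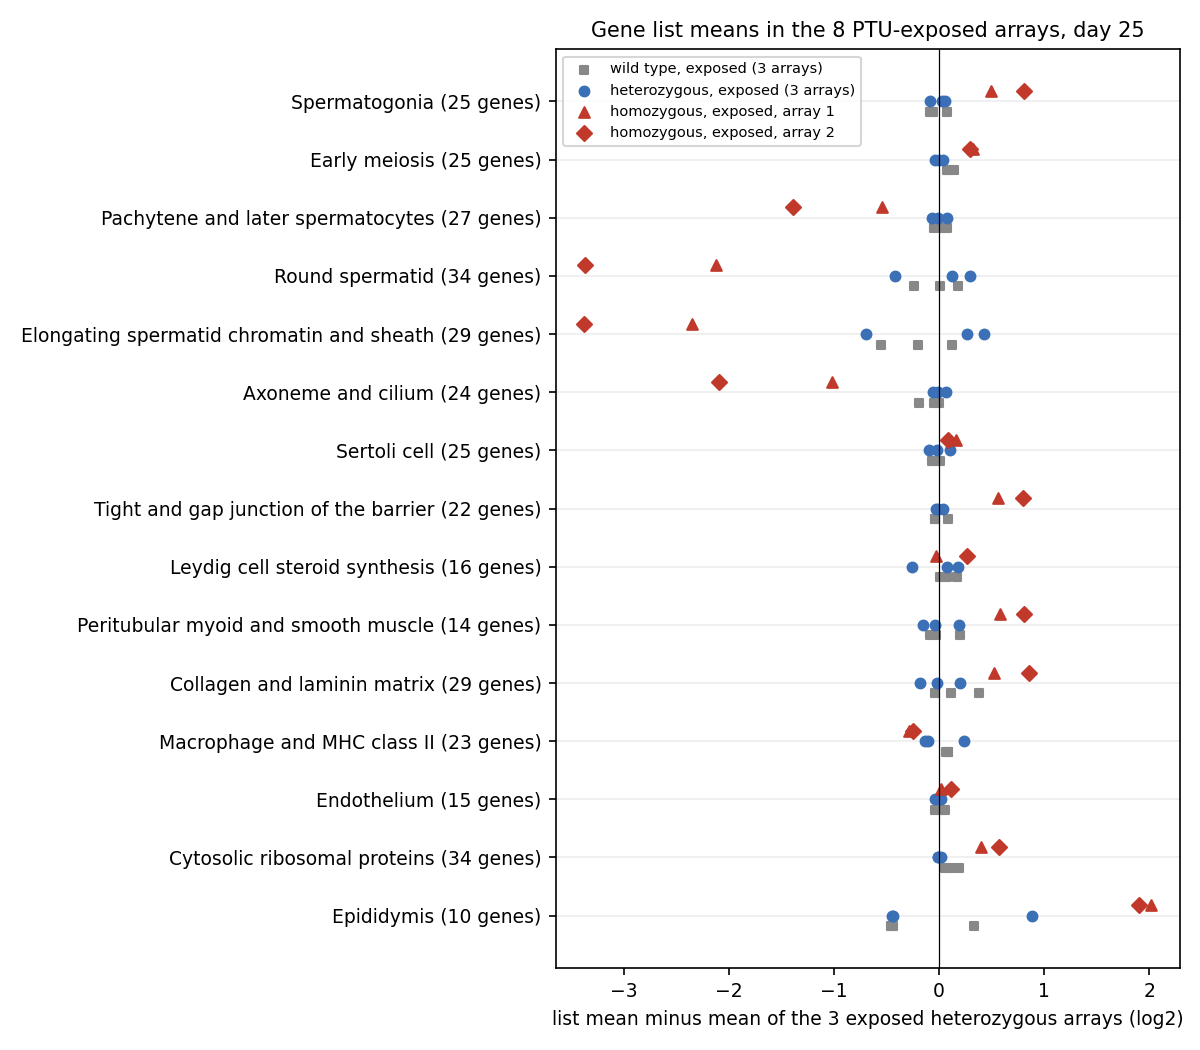
Mean log2 intensity of 15 gene lists in the 8 PTU-exposed arrays, as the difference from the mean of the 3 heterozygous arrays; squares are wild type, circles heterozygous, and the triangle and diamond homozygous arrays 1 and 2. The spermatid lists lie below 0 in both homozygous arrays and farther in array 2, while the epididymis list lies near 2 in both.

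Transcripts of spermatids were lower in the exposed homozygous testes. All 34 tested genes of the round spermatid list fell (limma, background 31.4% lower), with a median of -2.51, and in all 34 both homozygous arrays lay below all 3 heterozygous arrays. That order held for 38% of all tested genes, and 30.9% both had it and passed as lower. Of 29 genes of elongating spermatids 25 fell and 1 rose, with a median of -3.15. The mean of the round spermatid list was 10.5, 9.92 and 10.6 in the heterozygous arrays, against 8.22 in homozygous array 1 and 6.97 in array 2. The exposed wild type arrays, at 10.1 to 10.5, lay within the heterozygous range, and unexposed homozygous arrays lay at 11.2 to 11.3. Acrv1, a protein of the acrosome matrix, read 10.03, 9.41 and 10.48 in the heterozygous arrays and 6.56 and 4.23 in the homozygous arrays. Its difference was -4.58 ± 0.50 (limma adjusted p = 5.13e-06). Spam1, the sperm hyaluronidase, read 8.55, 7.73 and 8.82 against 4.69 and 4.28, a clear gap in which both homozygous arrays were close to each other (-3.88 ± 0.27, adjusted p = 3.10e-07). Gapdhs, the glycolytic enzyme of the sperm tail, read 10.17, 9.77 and 10.77 against 6.79 and 5.32 (-4.19 ± 0.42). Izumo1, needed for sperm to fuse with the egg, read 9.02, 8.32 and 9.50 against 6.06 and 5.53 (-3.15 ± 0.31). Catsper1, a subunit of the sperm calcium channel, fell by 3.38 ± 0.30. The calls did not hinge on array 2: without it 34 of 34 round spermatid genes passed with a median of -2.17. With the epididymal mean as a covariate 15 of 34 passed, with a median of -2.02, among them Spam1, Gapdhs, Izumo1, Catsper1 and Acrv1.

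The 10 genes with the greatest falls, by rule among genes without overlap, included 4 with a known place in the sperm: Smcp of the mitochondrial sheath, Odf1 of the outer dense fibres, Capza3 of the actin capping complex, and Acrv1. Smcp read 10.97, 10.30 and 11.42 in the heterozygous arrays and 7.46 and 4.39 in the homozygous arrays (-4.97 ± 0.64). Odf1 read 10.75, 10.12 and 11.29 against 7.24 and 4.39 (-4.91 ± 0.59). Capza3 read 10.14, 9.06 and 10.35 against 5.99 and 3.98 (-4.86 ± 0.49). In all 3, homozygous array 2 was at the low end of the array's range while array 1 still carried signal, and heterozygous array 2 was the lowest of its group. Iqcf3, of the IQ motif family, had the greatest difference on this scale, from 9.42, 8.42 and 9.97 to 4.45 and 3.60 (-5.24 ± 0.46), with both homozygous values near background. The other 5 were 1700113H08Rik, Scp2d1, Gm19723, Gm9999 and Tmco2, with differences from -4.97 to -4.59. Among packaging proteins of sperm chromatin, the transition protein Tnp1 read 10.65, 8.10 and 10.60 against 5.36 and 5.32 (-4.45 ± 0.83, adjusted p = 2.97e-04). The protamine Prm1 read 10.67, 7.74 and 10.62 against 6.77 and 6.31 (-3.14 ± 0.92, adjusted p = 0.00766), with heterozygous array 2 close to homozygous array 1. Prm1 lost its call without homozygous array 2 (-2.91, adjusted p = 0.0544). Tsga8 and Akap3, a chromatin protein and a fibrous sheath anchor, fell by 3.11 ± 0.29 and 3.74 ± 0.39. Without homozygous array 2, 21 of the 29 genes of elongating spermatids passed as lower and none as higher, and without array 1, 23. The epididymal covariate left 11 as lower, with a median of -1.54. The lone gene that rose, Hook1, a microtubule adaptor (0.22), lost its call without either homozygous array (adjusted p = 0.125 and 0.097) and without heterozygous array 1 or 2.

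The axoneme, the microtubule core of the tail, showed the same direction. Of 24 tested genes 22 fell and none rose, with a median of -1.51. Foxj1, the master regulator of motile cilia, read 8.96, 8.88 and 9.22 in the heterozygous arrays and 6.62 and 5.69 in the homozygous arrays (-2.87 ± 0.26, limma adjusted p = 2.12e-06). Spag6, of the central pair, read 9.72, 9.19 and 10.04 against 6.92 and 4.83 (-3.77 ± 0.43). Spag17 of the same structure fell by 1.60 ± 0.13 and the dynein heavy chain Dnah1 by 1.59 ± 0.18. Dnaic2, a dynein intermediate chain, read 10.23, 9.64 and 10.05 against 8.77 and 5.37 (-2.90 ± 0.60). Its fall rested largely on homozygous array 2, since without that array it was -1.20, and -4.60 without array 1. The list median without array 2 was -0.95, with 22 of 24 genes still passing. There were 11 with the epididymal covariate and 9 with the beta-actin covariate.

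Since these genes moved together, their promoters were read for motifs of factors with a known role in spermatids: the cyclic AMP response element, read by Crem, and the X-box of Rfx factors. Windows of 300 bases, 250 before and 50 after the start site, came from RefSeq for build GRCm38.p6, and both strands were searched. The short form TGACG lay in windows of 12 of 28 round spermatid genes with a window and in 23% of 27025 genes in the table. Other falling lists had it less often than all genes: 16% of elongating spermatid, 15% of pachytene and 11.5% of axoneme genes. The complete palindrome TGACGTCA, which contains the short form, lay in 1 of the 28 (Izumo1) and in 2.03% of all genes. The X-box part GTTGCC lay in 10 of 26 axoneme genes and in 14.1% of all genes, against 17.9% of round spermatid and 12% of elongating spermatid genes. These are 3 motifs over 6 gene lists, described without a test, and a match does not show that a factor binds. The 250 bases upstream of the start site are shown for 3 genes whose falls are given above, with the motif in capitals. They lie at chr7:45621561-45621810 for Izumo1, chr2:18698772-18699021 for Spag6 and chr11:114727169-114727418 for Dnaic2, all on the + strand. The matches begin 96, 37 and 26 bases before the start site, and that of Dnaic2 is on the opposite strand, so it reads GGCAAC here.
Izumo1: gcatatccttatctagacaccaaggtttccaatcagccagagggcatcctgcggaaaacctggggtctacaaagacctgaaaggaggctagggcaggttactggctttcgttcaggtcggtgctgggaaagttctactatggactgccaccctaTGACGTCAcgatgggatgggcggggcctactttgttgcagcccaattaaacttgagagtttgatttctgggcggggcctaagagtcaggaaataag
Spag6: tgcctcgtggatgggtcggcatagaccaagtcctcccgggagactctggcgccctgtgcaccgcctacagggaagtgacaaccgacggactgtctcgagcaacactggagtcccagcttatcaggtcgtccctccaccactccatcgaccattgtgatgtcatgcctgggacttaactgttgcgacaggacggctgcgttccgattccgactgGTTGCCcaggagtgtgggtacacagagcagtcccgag
Dnaic2: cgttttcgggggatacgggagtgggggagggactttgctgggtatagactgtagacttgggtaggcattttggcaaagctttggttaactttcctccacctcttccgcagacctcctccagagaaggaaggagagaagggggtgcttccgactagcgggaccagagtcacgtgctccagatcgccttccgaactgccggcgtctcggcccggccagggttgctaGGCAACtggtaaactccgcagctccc

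The factors themselves were also measured. Crem read 11.57, 11.26 and 11.53 in the heterozygous arrays and 10.55 and 9.31 in the homozygous arrays (-1.52 ± 0.24, adjusted p = 8.48e-05). Both homozygous arrays were below the others, but without array 2 the difference was -0.90. Rfx2, the Rfx factor of spermatids, read 11.40, 11.61 and 11.53 against 10.18 and 9.19 (-1.83 ± 0.19).

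Relative to the rest of the array, transcripts of spermatogonia and early meiosis moved the other way, with a turn within meiosis. Of 27 genes of pachytene and later spermatocytes 21 fell and 2 rose (median -0.85). With the epididymal covariate 5 passed as lower, with a median of -0.87, against 4 with the beta-actin and 8 with the poly-A covariate. Of 25 early meiosis genes 16 rose and 4 fell (median 0.48, background 33.3% higher). Of 25 spermatogonial genes 18 rose and 2 fell (median 0.72). Ybx2, an RNA-binding protein that stores germ cell mRNA, read 13.94, 14.08 and 14.03 in the heterozygous arrays and 13.08 and 12.41 in the homozygous arrays (-1.27 ± 0.14). Hspa2, a chaperone of pachytene cells, fell by 0.79 ± 0.10. Tcp11 fell by 1.95 ± 0.24, and by 1.30 without homozygous array 2. Ccna1, the cyclin of late meiotic prophase, read 11.55, 11.14 and 11.37 in the heterozygous arrays and 6.78 in homozygous array 2, with array 1 in between. Its difference of -2.96 ± 0.56 was -1.35 without array 2 and -4.57 without array 1, so the arrays disagree on its size. Ccnb1ip1, a crossover factor, rose by 0.75 ± 0.10.

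Dmc1, the meiotic recombinase, read 9.58, 9.47 and 9.14 in the heterozygous arrays and 10.57 and 10.54 in the homozygous arrays (1.16 ± 0.14, limma adjusted p = 1.19e-05). Both homozygous arrays were higher and nearly equal. The double-strand break repair factor Tex15 rose by 0.88 ± 0.08 and the chromatin remodeller Hells by 1.01 ± 0.13. Rec8, the meiotic cohesin, went the other way, from 8.96, 9.02 and 9.44 to 7.76 and 7.51 (-1.50 ± 0.18). In spermatogonia, Rhox13 read 9.54, 9.45 and 9.40 against 10.73 and 11.54 (1.67 ± 0.18). Sohlh2 and Taf4b, regulators of spermatogonial differentiation and renewal, rose by 1.10 ± 0.14 and 0.97 ± 0.13. Stra8, the retinoic acid target that opens meiosis, rose by 1.30 ± 0.18. Id4 (0.12, adjusted p = 0.406) and Bcl6b (0.12, adjusted p = 0.332), which mark stem cells, did not pass. The spermatogonial list mean was 8.23 to 8.38 in the heterozygous arrays, 8.81 in homozygous array 1 and 9.13 in array 2. Without array 2, 15 spermatogonial and 13 early meiosis genes passed as higher, and without array 1, 19 and 14. Without array 1 only 1 spermatogonial gene passed as lower instead of 2. With the covariate, 5 and 4 passed as higher.

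Genes of Sertoli cells, which nurse the germ cells, split. Among 25 tested genes there were 13 rises and 5 falls, with a median of 0.42, or 0.23 without homozygous array 1. The epididymal covariate left 2 rises and 2 falls. Factors of Sertoli identity rose moderately: Wt1 by 0.73 ± 0.13, Sox9 by 0.73 ± 0.15 and Dmrt1, also a spermatogonial gene, by 1.03 ± 0.15. Ligands for germ cells rose too. Kitl, the stem cell factor, read 10.34, 10.23 and 10.16 in the heterozygous arrays and 11.13 and 11.61 in the homozygous arrays (1.13 ± 0.16), and Gdnf, which keeps spermatogonial stem cells, rose by 1.11 ± 0.18. The water channel Aqp8 had the greatest fall of the list, from 9.04, 9.31 and 9.71 to 6.23 and 5.41 (-3.53 ± 0.25, limma adjusted p = 3.93e-07). The homozygous arrays did not overlap the others, and exposed wild type arrays read 9.26, 9.02 and 8.70. Drd4 fell by 1.67 ± 0.23 and Inha, the inhibin alpha chain, by 0.92 ± 0.17. Tsx fell by 1.68 ± 0.28 (-0.95 without homozygous array 2). Rhox5, an androgen-dependent homeobox gene, read 9.80, 10.38 and 10.62 against 9.71 and 7.90 (-1.46 ± 0.39), and without array 2 it did not pass (-0.55, adjusted p = 0.147), while without array 1 the difference was -2.37. Amh, the hormone of immature Sertoli cells, read 7.46, 7.49 and 7.28 against 7.21 and 7.35, so the groups overlapped (-0.13, adjusted p = 0.45).

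Krt18, a keratin of simple epithelia placed on the Sertoli list for its expression in immature Sertoli cells, read 4.79, 6.39 and 4.73 against 9.27 and 9.82 (4.24 ± 0.36). Heterozygous array 2 was again the highest of its group, as it was for the epididymal transcripts, and epithelia outside the testis express this gene as well. With the epididymal covariate Krt18 still passed (2.33).

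Junction genes of the blood-testis barrier were mostly higher, with 16 rises and 1 fall among 22 and a median of 0.67. Cldn1, a claudin, read 4.99, 5.19 and 4.85 in the heterozygous arrays and 7.69 and 8.04 in the homozygous arrays (2.86 ± 0.17, limma adjusted p = 9.37e-08). Exposed wild type arrays read 4.86, 5.07 and 5.62, so the gap was to all other exposed arrays. F11r and Jam2, junctional adhesion molecules, rose by 1.15 ± 0.12 and 1.08 ± 0.12, and Cldn12 by 1.13 ± 0.15. For F11r another probe set passed in the opposite direction (-0.23). Cldn11, the main claudin of Sertoli cells, rose by 0.57 ± 0.14, and Gja1, the gap junction protein connexin 43, by 0.78 ± 0.12. Of 22 genes that tie the junction to actin 14 rose and 6 fell, and without homozygous array 2, 9 rose and 3 fell, while 1 rose with the epididymal covariate. The actin linker Vcl rose by 0.90 ± 0.12, while another Vcl probe set did not pass (-0.44). Cdh1, the cadherin of epithelia, read 3.95, 4.92 and 3.82 against 6.46 and 8.06 (3.03 ± 0.37). Several of these genes are also made by other epithelia. With the epididymal covariate 4 junction genes passed as higher, Cldn1 (2.19), F11r (0.92), Jam2 (1.33) and Pard3 (0.68), and Cdh1 did not (1.67, adjusted p = 0.072).

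Leydig cells make androgens from cholesterol, and their genes moved in both directions. Among 16 tested genes 9 rose and 4 fell (median 0.61), and with the epididymal covariate 2 rose and 1 fell (median 0.26). Cyp11a1, which cleaves the cholesterol side chain as the first committed step, read 9.93, 10.30 and 11.42 in the heterozygous arrays and 6.57 and 5.47 in the homozygous arrays (-4.53 ± 0.51, limma adjusted p = 6.33e-06). Exposed wild type arrays read 11.06, 10.69 and 9.77, also far above. Another Cyp11a1 probe set did not pass (0.03). Cyp17a1, which makes androgen precursors, read 8.48, 11.22 and 12.12 against 6.21 and 7.13 (-3.94 ± 0.89). The heterozygous arrays varied widely, with array 1 the nearest to the homozygous ones. Hsd3b1, which makes progesterone and other intermediates, fell by 0.81 ± 0.19, with both homozygous arrays below the heterozygous ones. Star, which delivers cholesterol to the mitochondrion, did not pass (-0.80 ± 0.36, adjusted p = 0.0629), and it passed without heterozygous array 1.

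Genes that rose included markers of immature or stem-like Leydig and interstitial cells. Akr1c14, a 3-alpha-hydroxysteroid dehydrogenase of immature Leydig cells, read 6.5, 6.15 and 6.01 in the heterozygous arrays and 7.85 and 8.93 in the homozygous arrays (2.17 ± 0.27). Exposed wild type arrays, at 6.90, 7.10 and 7.53, lay in between. Dlk1, of fetal-type and immature Leydig cells, read 7.23, 7.70 and 6.91 against 9.24 and 10.90 (2.79 ± 0.36). Ptch1, the hedgehog receptor of interstitial cells, read 9.95, 9.98 and 9.70 against 11.23 and 11.54 (1.51 ± 0.15), and the growth factor receptor Pdgfra rose by 1.21 ± 0.19. Hsd17b3, which completes testosterone synthesis, read 6.65, 6.78 and 7.82 against 7.62 and 8.96. These ranges overlapped and its call (1.21 ± 0.50, adjusted p = 0.0457) was lost without homozygous array 2 (0.54, adjusted p = 0.46). It was also lost without heterozygous array 1 or 2 (1.06, adjusted p = 0.113, without array 2), and the difference was 1.88 without homozygous array 1. With the epididymal covariate Cyp11a1 (-3.55), Akr1c14 (1.99) and Ptch1 (1.14) passed, and Dlk1 did not (1.79, adjusted p = 0.0741).

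**Figure D2:**
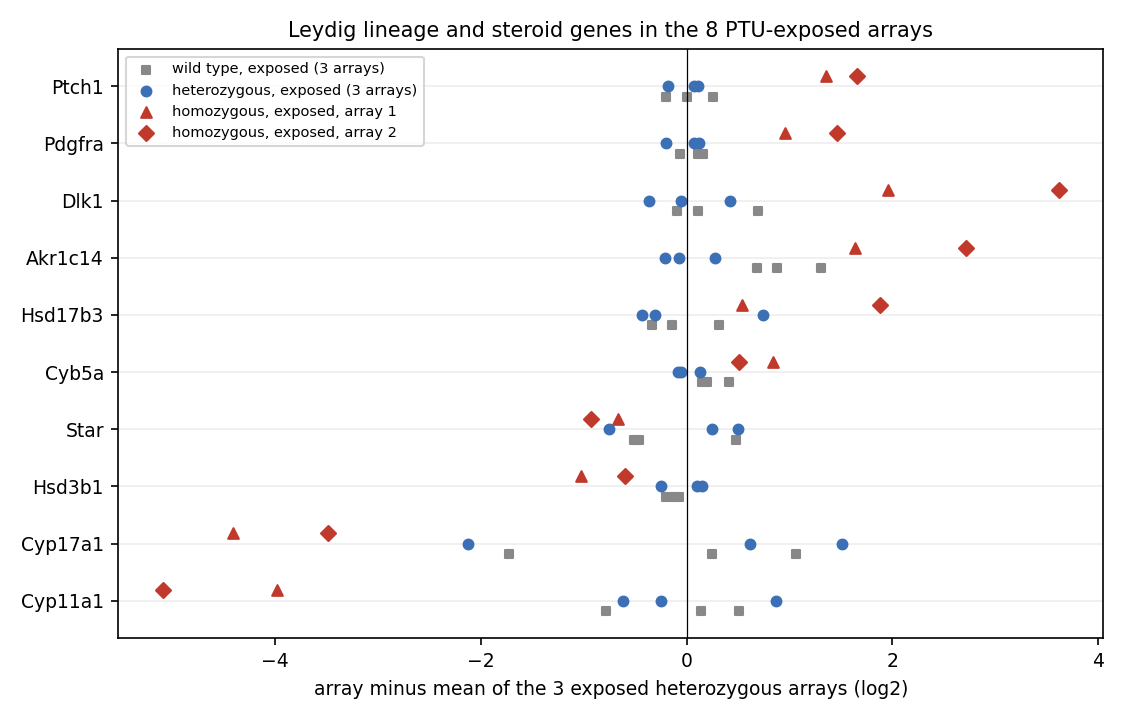
Log2 intensity of 10 Leydig lineage and steroid genes in the 8 PTU-exposed arrays, as the difference from the mean of the 3 heterozygous arrays, with the same symbols as for the list means. Cyp11a1 and Cyp17a1 lie far below 0 in both homozygous arrays while Ptch1, Pdgfra, Dlk1 and Akr1c14 lie above every heterozygous and wild type array.

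Thyroid hormone action, the pathway that PTU lowers, showed few calls: 3 rises and 1 fall among 12 genes (median -0.12, -0.29 without homozygous array 1, -0.03 without array 2 and -0.20 without heterozygous array 3). A single gene, Thra, passed with the epididymal covariate. Thra, the main thyroid hormone receptor gene of the testis, read 9.29, 9.23 and 9.07 in the heterozygous arrays and 10.72 and 11.24 in the homozygous arrays (1.78 ± 0.14, limma adjusted p = 7.03e-07). Exposed wild type arrays read 9.07, 9.07 and 9.24, within or next to the heterozygous range. The partner receptor Rxrb rose by 0.79 ± 0.14 (0.52 without homozygous array 2) and the coactivator Ncoa1 by 0.53 ± 0.10. The target genes Klf9 (-0.16, adjusted p = 0.348, but -0.49 without homozygous array 1) and Hr (-0.05, adjusted p = 0.79) did not pass. Thrsp, a lipid-synthesis target, fell by 0.40 ± 0.10 in its brightest probe set, while its others did not pass (0.18 and 0.55). Without homozygous array 1, 5 genes of the list passed as lower instead of 1, and without heterozygous array 3, 2.

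Genes around the kinase were mixed. In the list of Akt kinases and the PI3K core 7 of 22 rose and 7 fell, shares near those of all genes, with a median of -0.01. In each direction 1 passed with the epididymal covariate. Inpp5d, a lipid phosphatase of blood cells that opposes PI3K, read 8.65, 8.44 and 8.51 in the heterozygous arrays and 7.66 and 7.27 in the homozygous arrays (-1.07 ± 0.13). Rheb, the activator of mTORC1, read 11.68, 11.68 and 11.61 against 12.39 and 12.78 (0.93 ± 0.13). Rictor, of mTORC2, rose by 0.78 ± 0.12, and Phlpp2, a phosphatase that inactivates Akt, by 0.98 ± 0.15 (0.60 without homozygous array 2). The number that fell was 4 without homozygous array 2, heterozygous array 2 or heterozygous array 3.

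FoxO factors and their targets gave 12 of 18 higher, 3 lower and a median of 0.83. Foxo1 itself read 9.04, 9.01 and 8.87 against 9.77 and 10.06 (0.94 ± 0.13), and it is also a gene of spermatogonia. Txnip, an inhibitor of thioredoxin, read 11.01, 10.78 and 10.64 against 11.99 and 12.12 (1.24 ± 0.17), with no overlap. The cell cycle gene Ccng2 rose by 0.91 ± 0.12 and Klf6 by 1.10 ± 0.15. Under the epididymal covariate 2 of the 18 passed, Foxo1 (0.80) and Txnip (1.14).

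Of the genes listed as neighbours of Akt1 on chromosome 12, 11 of 20 tested rose and 5 fell (median 0.43). Of these, 2 passed as higher and none as lower with the epididymal covariate. Crip1, a LIM-domain protein, read 8.73, 9.34 and 8.75 against 11.21 and 11.78 (2.55 ± 0.26). Heterozygous array 2 was the highest of its group, as for the epididymal transcripts. Exposed wild type arrays 1 to 3 read 8.80, 9.41 and 9.98 for Crip1. Siva1, a cell death factor, rose by 1.00 ± 0.10, Btbd6 rose by 1.09 ± 0.17, and Zbtb42 fell by 1.83 ± 0.26 (-1.16 without homozygous array 2). In unexposed mice the same genes differed by -0.09 to 0.26 and none passed. Of the 20, 7 rose without homozygous array 2, with a median of 0.26.

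Other cell types of the testis moved less uniformly. Of 14 genes of peritubular myoid and smooth muscle cells 10 rose and none fell (median 0.80). Tagln read 10.05, 10.17 and 9.70 in the heterozygous arrays and 11.72 and 11.88 in the homozygous arrays (1.82 ± 0.19), and smooth muscle actin, Acta2, rose by 1.01 ± 0.16. Collagens, laminins and other matrix genes rose for 20 of 29, with 2 lower (median 0.75). Lamb1, a laminin chain, rose by 1.45 ± 0.18 and the fibronectin gene Fn1 by 0.79 ± 0.14. For muscle and matrix genes heterozygous array 2 was the highest of its group in the list means (9.18 and 9.23), and both types also surround the epididymal tubule. Of the 14, Tagln (1.04) alone passed with the epididymal covariate, and Lamb1 rose and Col15a1 fell among the 29. Without homozygous array 2 the median of the matrix genes was 0.55. Leaving out any 1 exposed heterozygous array gave 1 lower matrix gene instead of 2.

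Of 23 macrophage and MHC class II genes 9 fell (39.1%, against 31.4% of all genes) and 2 rose (median -0.27). Without heterozygous array 3, 6 fell and 3 rose (median -0.11), and with the epididymal covariate 1 fell and none rose. Aif1, a macrophage calcium-binding protein, read 8.72, 7.99 and 8.97 against 6.10 and 5.32 (-2.85 ± 0.38). Aif1 also went with the mean of the round spermatid list, and heterozygous array 2 was the lowest of its group in both. Exposed wild type arrays read 9.03, 8.73 and 8.27 for Aif1, beside round spermatid means of 10.5, 10.4 and 10.1. Whether the fall of Aif1 came from macrophages or from germ cells was not tested. Fcgr3 fell by 1.05 ± 0.13, Adgre1, the F4/80 antigen, by 1.04 ± 0.17 and the fractalkine receptor Cx3cr1 by 0.98 ± 0.14. Csf1r, the receptor on which macrophages depend, read 8.50, 8.44 and 9.01 against 8.29 and 8.51 and overlapped (-0.25, adjusted p = 0.292). H2-Aa, an MHC class II chain, rose by 1.79 ± 0.39. Without homozygous array 2, 7 fell and 1 rose. Endothelial genes gave 5 higher and 1 lower of 15 (median 0.18). The lower one, Sox17, read 8.11, 7.92 and 8.08 against 6.81 and 5.93, and which cells it came from was not tested. Sox17 fell by 1.67 ± 0.18, while Robo4 (0.62), Esam (0.42) and Cdh5 (0.67) passed as higher only with homozygous array 2, without which 1 gene was higher and 2 lower. Another Cdh5 probe set passed in the opposite direction (-0.60, adjusted p = 0.0104). No endothelial gene passed as higher, and 1 as lower, with the epididymal covariate. Without heterozygous array 2, 3 endothelial genes rose. Blood genes were lower for 4 of 7 and higher for none, and lower for 2 with the epididymal covariate. The heme synthesis gene Alas2 read 7.39, 7.97 and 8.12 against 6.14 and 6.45 (-1.53 ± 0.18).

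Among the greatest rises were transcripts known from the epididymis and its secretions. Defb42, a beta-defensin, read 4.59, 7.57 and 4.51 in the heterozygous arrays and 11.61 and 12.08 in the homozygous arrays (6.29 ± 0.84, limma adjusted p = 1.97e-05), with heterozygous arrays 1 and 3 near background. Spink8, a protease inhibitor, read 5.86, 10.07 and 6.34 against 12.92 and 12.75 (5.41 ± 0.95). Cd52, a surface protein of lymphocytes that the epididymis also makes for sperm, read 6.17, 10.35 and 5.96 against 12.92 and 12.90 (5.41 ± 0.95). In each, both homozygous arrays were high and heterozygous array 2 lay between them and the rest. The other genes of the 10 greatest rises were the defensins Defb9 (5.45) and Defb2 (5.15), the protease inhibitors Serpina1f (5.17), Wfdc15b (4.68) and Spink10 (4.34), Cuzd1 (4.36) and Krt18 (4.24). Exposed wild type array 3 also carried Spink8, at 8.72 against 5.97 to 5.99 in the other 2. All unexposed arrays read 5.74 to 6.40 for it.

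Of 20 genes on the epididymis list, 14 had a probe set with 1 gene symbol and 10 passed the filter, of which 6 rose and 2 fell. The median of the 10 was 1.80, and since the 2 homozygous arrays suffice to pass the filter it depends on it: over all 14 genes 6 rose and 4 fell, with a median of 0.39, and at the 50th percentile the median of 7 genes was 3.27. For the 10 genes the mean was 6.41, 7.73 and 6.40 in the heterozygous arrays and 8.87 and 8.75 in the homozygous arrays. Defb1 rose by 2.05 ± 0.14, Lcn5, a retinoic acid carrier, by 1.54 ± 0.21 and the sperm-coating Adam7 by 3.27 ± 0.49. Not every defining marker was present: Gpx5 (4.25 to 4.35 in heterozygous, 3.84 to 4.03 in homozygous arrays), Crisp4, Lcn9 and Clca4b stayed under the filter, which asks for 4.76 in at least 2 arrays, and Lcn8 did not pass (-0.06, adjusted p = 0.672). Spink2 (-1.28) and Rnase10 (-1.83), the 2 that fell, differed by -0.66 and -0.90 without homozygous array 2, Rnase10 by -2.77 without array 1, and Spink2 is also a spermatid gene. Fat genes, from tissue that lies beside the testis, rose for 2 of 10, for 1 without heterozygous array 1 or 3 and for 4 without heterozygous array 2. Their median was 0.34, or 0.74 without homozygous array 2, and none passed with the epididymal covariate. They were Lpl (2.09), which Sertoli and other cells also express, and Fabp4 (3.20, adjusted p = 0.0159), which lost its call without homozygous array 1 (adjusted p = 0.0874) or without heterozygous array 1 (0.0602) or 3 (0.0555). Fabp4 read 10.4 in exposed wild type array 3, above both homozygous arrays.

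The plot of Spink8 against round spermatid genes sets both signals side by side. Homozygous arrays 1 and 2 read 12.92 and 12.75 for Spink8, and the round spermatid mean was lower by 1.25 log2 in array 2. Other epididymal transcripts were higher in array 2, among them Defb42 (11.61 and 12.08), Defb9 (9.14 and 9.69), Lcn5 (6.03 and 6.998) and Adam7 (8.38 and 8.50), while the mean of the epididymis list was 8.87 and 8.75. Heterozygous array 2, with Spink8 at 10.07, had a round spermatid mean of 9.92, the lowest of its group. Exposed wild type array 3, with Spink8 at 8.72, stood at 10.1, also the lowest of its group (10.5 and 10.4 in arrays 1 and 2). The unexposed wild type arrays, with Spink8 at only 5.94 to 6.40, stood at 10.2 to 10.8. The part of epididymal tissue in the spermatid values was not tested.

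**Figure D3:**
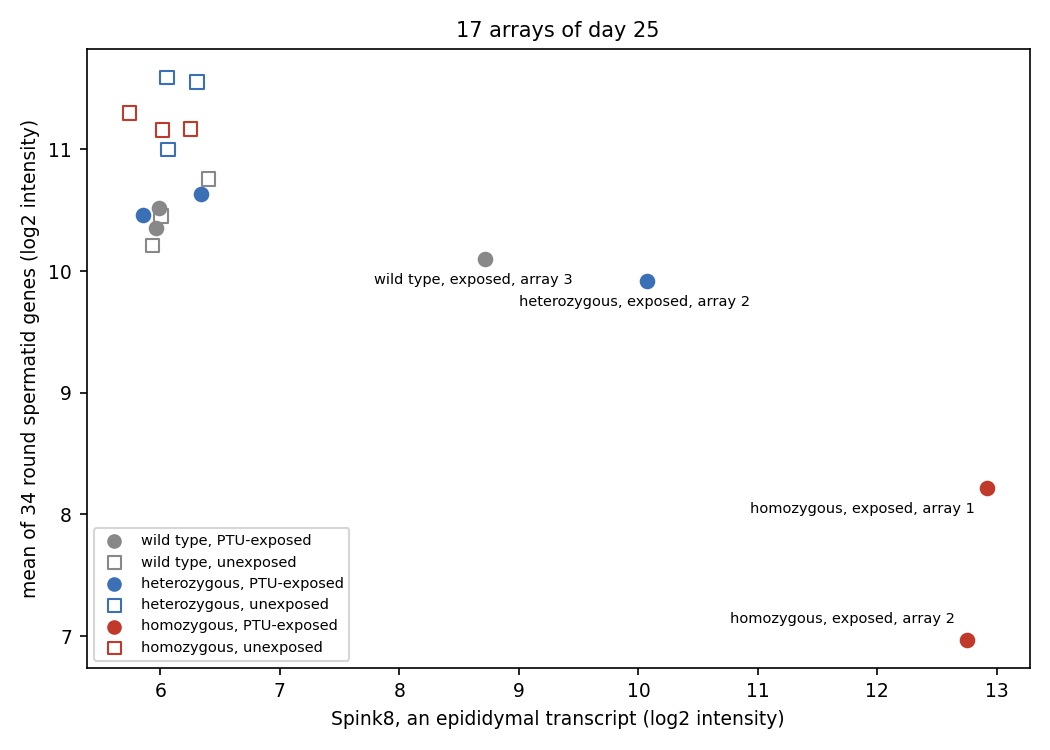
Mean log2 intensity of 34 round spermatid genes against the log2 intensity of Spink8 in the 17 arrays of day 25; filled circles are PTU-exposed, open squares unexposed, and colours give the genotype. Both exposed homozygous arrays have Spink8 near 13 and spermatid means of 8.22 and 6.97. Exposed heterozygous array 2 and wild type array 3 have intermediate Spink8 and spermatid means near 10. Unexposed wild type arrays, with Spink8 of 5.94 to 6.40, have means of 10.2 to 10.8. The other unexposed arrays, also low in Spink8, have means of 11.001 to 11.59 (heterozygous) and 11.2 to 11.3 (homozygous).

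Genes of glucose and lactate supply moved in both directions, 8 of 21 rising and 9 falling (median 0.13), or 38.1% and 42.9% against 33.3% and 31.4% of all genes. Under the epididymal covariate 6 fell and none rose. Aldoart1, an aldolase of sperm, went from 8.06, 7.41 and 8.36 to 5.06 and 3.66 (-3.59 ± 0.39). Hk1 fell by 1.99 ± 0.22, the muscle-type phosphofructokinase Pfkm by 1.02 ± 0.12 and the transporter Slc2a8 by 0.95 ± 0.11. Ubiquitous Pgk1 rose by 0.63 ± 0.11 while its sperm form Pgk2 fell by 2.69 ± 0.47 (-1.39 without homozygous array 2). Slc16a1, a lactate transporter, rose by 0.70 ± 0.13. Without homozygous array 2, 5 genes of the list rose and the median was -0.20. In the respiratory chain, the subunit gene Cox6b1 rose from 11.16, 11.26 and 11.35 to 12.41 and 12.81 (1.35 ± 0.13), and the testis form Cox6b2 fell from 13.47, 13.50 and 13.56 to 12.94 and 12.50 (-0.79 ± 0.11). In total 15 of 40 respiratory chain genes rose and 5 fell (median 0.12). The counts were 10 and 4 without homozygous array 2 (median 0.19) and 5 and 2 with the epididymal covariate.

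In cholesterol synthesis and uptake 9 of 21 genes rose and 3 fell (median 0.41), and without homozygous array 2, 5 rose (median 0.22). When the epididymal mean was a covariate, 3 rose and none fell (median 0.42). Insig1, which holds back the SREBP factors, read 8.04, 8.03 and 8.11 against 9.09 and 9.69 (1.33 ± 0.19). Srebf1 rose by 1.22 ± 0.18, the exporter Abcg1 by 0.93 ± 0.14, and the squalene synthase gene Fdft1 fell by 0.93 ± 0.14. Cytosolic ribosomal protein genes rose for 30 of 34, with 1 lower (median 0.44), and 24 rose and none fell without homozygous array 2. Rps4x, on the X chromosome, read 11.76, 11.95 and 11.70 against 13.41 and 13.73 (1.77 ± 0.16), the largest difference of the list. Another Rps4x probe set did not pass (-0.08). Rps19 rose by 1.14 ± 0.13. Proteasome genes rose for 18 of 32 and fell for 3 (median 0.27), with Psma1 (0.94 ± 0.11) and Psma2 (0.92 ± 0.10) among the highest. With the epididymal covariate 5 ribosomal and 7 proteasome genes passed as higher and none as lower, with list medians of 0.46 and 0.29.

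Genes of stress and cell death completed the lists. Immediate early and heat shock genes rose for 10 of 21 and fell for 5 (median 0.47). That median was 0.24 without homozygous array 2, 0.78 without array 1 and 0.29 without heterozygous array 1, and 7 rose and none fell with the epididymal covariate. Egr2, an early growth response factor, read 5.09, 4.78 and 4.63 in the heterozygous arrays and 6.32 and 7.11 in the homozygous arrays (1.88 ± 0.21). The inducible chaperone Hspa1b rose by 1.66 ± 0.21 and the small heat shock protein Hspb1 by 1.13 ± 0.14, while Fos did not pass (0.23, adjusted p = 0.606). Leaving out homozygous array 1, homozygous array 2 or heterozygous array 2 gave 3 lower genes instead of 5. Of 22 genes of the Bcl2 family and death receptors 12 rose and 3 fell (median 0.34), and 5 fell without homozygous array 1. The median was 0.20 without array 2, and with the epididymal covariate 6 rose and 1 fell. Xiap, an inhibitor of caspases, rose by 1.28 ± 0.14. The killers Bmf and Bid rose by 1.33 ± 0.16 and 0.99 ± 0.11, so members with opposing roles rose together in their brightest probe sets. The other probe sets of Xiap (0.21 and 0.57) and Bmf (0.07 and 0.02) did not pass. Bcl2l14, a family member abundant in testis, fell by 2.44 ± 0.26. Interferon response genes rose for 14 of 26 and fell for 4 (median 0.43). The median was 0.21 without homozygous array 2 and 0.72 without array 1, and 1 rose and none fell with the epididymal covariate. B2m, the light chain of MHC class I, read 10.36, 11.15 and 10.94 against 12.07 and 12.16 (1.30 ± 0.19). Ifih1, a sensor of double-stranded RNA, rose by 1.04 ± 0.13 and Irf9 by 1.00 ± 0.15. H2-D1 rose by 1.00 ± 0.16, although 2 other probe sets of that gene passed as lower (-0.42 and -0.48). Oas2 (-0.44 ± 0.12) and Mx2 (-0.51 ± 0.11), classic antiviral effectors, fell.

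The last comparison asks whether the genotype difference depended on PTU. The difference of the contrasts, exposed minus unexposed, passed for 7745 of 16305 genes in limma (47.5%), 4024 above 0 (24.7%) and 3721 below 0 (22.8%). Without homozygous exposed array 2 it passed for 5078. The middle 90% of unexposed genotype differences lay between -0.30 and 0.27, and of exposed ones between -1.67 and 1.15. Of 34 round spermatid genes 33 passed this test, all below 0, and the list median was -0.17 in unexposed mice. Among junction genes 14 passed above 0 and 1 below. In the Leydig list 9 passed above 0 and 3 below. The greatest positive differences of contrasts were those of Defb42 (6.36), Spink8 (5.55) and Cd52 (5.55), and the greatest negative ones those of Iqcf3 (-5.22), 1700113H08Rik (-4.99) and Gm19723 (-4.83). Iqcf3 read 10.64 to 11.90 in unexposed heterozygous and 10.99 to 11.60 in unexposed homozygous arrays, which overlapped. This test passed for 22 genes with the epididymal covariate.

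**Figure D4:**
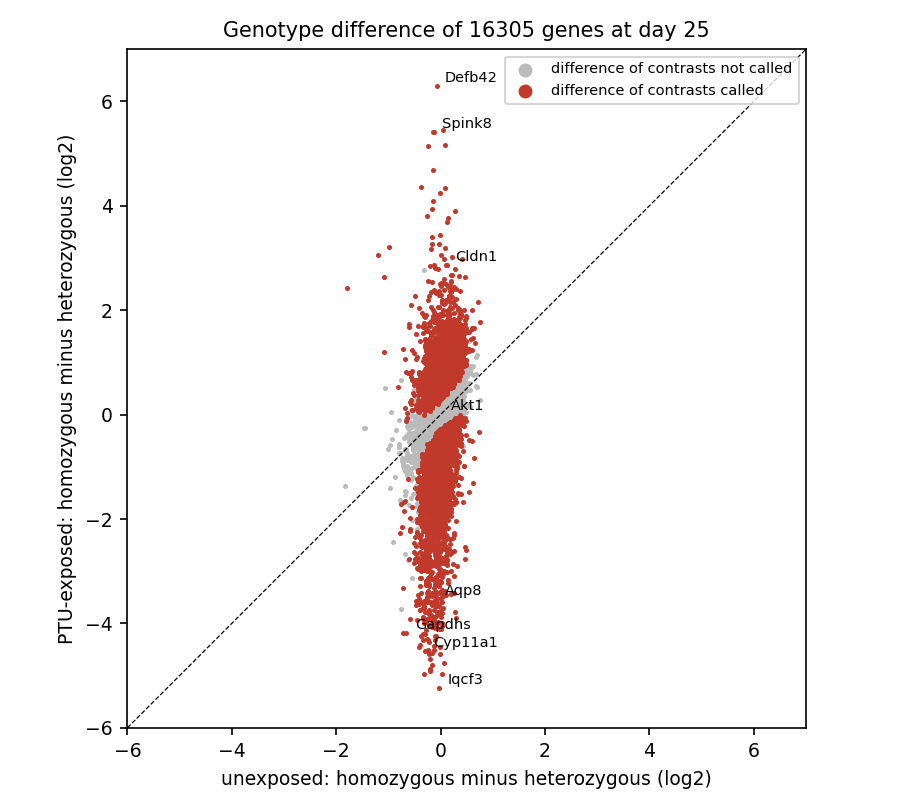
Homozygous minus heterozygous log2 difference of each of 16305 genes at day 25 in unexposed mice (horizontal) and in PTU-exposed mice (vertical); red genes passed the test of the difference of the contrasts and the dashed line marks equal differences. The cloud is tall and narrow, with unexposed differences mostly within -0.30 to 0.27 and exposed ones reaching beyond -1.67 and 1.15.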

How the data were processed

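Whole-testis RNA of 17 arrays of day 25 was read from the log2 intensities that the authors deposited, made with RMA per the submitters' processing notes, of unstated version. Of 45101 probe sets 34958 carried 1 gene symbol, 932 several and 9211 none. Probe sets with 1 symbol entered, each of 18194 genes was represented by its brightest one on average, and 16305 that exceeded 4.76, the 25th percentile, in at least 2 arrays were tested. The 6 group means were fitted together in R 4.3.3 with limma 3.58.1 (lmFit, contrasts.fit, eBayes), with Benjamini-Hochberg adjustment at 0.05 in each contrast. Errors are moderated standard errors. Of 5447 other probe sets that passed along with the brightest one of their gene, 82.5% had the same direction. The fit was tested on simulated data.

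The members and the 29 gene lists were chosen with earlier results of these data known, so a list's direction is not independent evidence. Named genes are Akt1 and Akt2, the 10 greatest rises and falls that passed without overlap, up to 4 passing members with the smallest p in each list, and the 3 greatest differences of contrasts in each direction; other list members named were chosen after their values were seen. The design counts a separate mouse for each array, and no label gives a litter or batch. The number of arrays, 2 against 3, limits the precision. Alternatives were filters, every probe set, quantile normalization, subsets of arrays, array weights and the replicate number as a block. Others were the beta-actin difference as a covariate, trend and robust eBayes, and leaving out each homozygous or heterozygous array. Wild type arrays were not left out. Covariates for the poly-A controls and the epididymal mean were chosen after seeing the data. Levels of different probe sets are not compared.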

Additional observations from a re-analysis of the deposited data

Results flagged for a closer look

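The genotype difference itself differed between exposed and unexposed mice for 7745 genes, by the test of the difference of the contrasts. With the poly-A mean as a covariate this test passed for 1332 genes, and with the epididymal mean for 22. The part of array quality and of epididymal transcripts in this result was not tested. Above 0, the genes named for the test were Defb42 (6.36), Spink8 (5.55) and Cd52 (5.55). Below 0 they were Iqcf3 (-5.22), 1700113H08Rik (-4.99) and Gm19723 (-4.83), all on the log2 scale. Outside the gene measurements, the 18S ribosomal RNA control probe set of exposed homozygous array 2 read 10.8, above the 6.12 to 7.44 of the other groups' arrays. The poly-A control mean of the same array was 9.89, above the 6.13 to 8.69 of those arrays.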

How the results depend on the processing

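The count of 10561 genes between the exposed genotypes became 17849 with every probe set on its own (of 29599), 6943 with array weights, 3280 with the beta-actin difference, 4565 with the poly-A mean and 2362 with the epididymal mean as a covariate. Leaving out an exposed heterozygous array gave 9760 to 10071. Leaving out an exposed homozygous array leaves 1 array of that genotype, and wild type arrays were not left out. The difference of contrasts, 7745 genes, became 12079, 4875, 1332 (poly-A) and 22 (epididymal mean) under the same alternatives, and 5078 to 9152 with arrays left out. The unexposed count of 0 became 4 with every probe set, 2 with the poly-A mean and 0 to 2 with arrays left out. With the epididymal covariate the sign turned for Spink8 (-0.63), Cd52 (-0.65), Serpina1f (-0.57) and Fabp4 (-1.66), and in the difference of contrasts for Spink8 (-1.002) and Cd52 (-1.02); the cause was not tested, but Spink8 and Cd52 are members of that mean. Of 131 named genes 44 then lost their call and 4 turned sign; 28 lost it with the beta-actin difference, 16 with the poly-A mean, 8 with array weights and at most 4 under any other alternative. The replicate number as a block gave 10408 exposed, 0 unexposed and 7470 difference calls and ended the call of Akt2 alone among named genes. The labels do not say what a number marks. Deviations of same-numbered arrays correlated at 0.238 and 0.331, and those of crossed arrays at -0.238 and -0.331. The deviations of 2 homozygous arrays mirror each other, so this check cannot tell whether the numbers pair the mice. Medians near 0 (PI3K core, thyroid hormone, glucose and lactate) changed sign under some settings, and those of the epididymis and fat lists with the epididymal covariate.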
